A study of Mus musculus with 6 samples.

Results

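Chromatin remodellers and histone modifiers were followed here through 54 genes given as a list of symbols: 17 ATPases that move nucleosomes, 11 noncatalytic SWI/SNF subunits, 5 partner proteins of ISWI-type and related remodellers, 7 genes of histone acetylation, 9 of histone methylation, 3 of DNA methylation and 2 further readers. Each symbol was represented by its brightest probe set (mean of 6 arrays), and 52 of the 54 were measured among 19937 genes. Ncor1, a corepressor scaffold, and Ash1l, a histone methyltransferase gene, had no probe set under their symbol alone and were not analysed here.

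The samples were polysomal RNA of the murine T-cell acute lymphoblastic leukaemia clone #483 (strain C57BL6), with 1 array for each of 3 control and 3 treated samples, which the design text calls biological replicates. Arrays of one group correlated at 0.9963 to 0.9972 over all genes and arrays of different groups at 0.988 to 0.9904. The treated cells received 100 µM 4EGI-1 for 2 h. 4EGI-1 is a small molecule that keeps the cap-binding protein eIF4E from the scaffold protein eIF4G, and so acts on the first step of cap-dependent translation. The control titles say untreated and the protocol names DMSO, so the solvent content of the control cultures was not settled. All values come from 1 clone, and no array of total RNA was analysed here, so a change in the amount of an mRNA and a change in its share on polysomes cannot be told apart. Likewise, in bulk RNA fewer cells and less RNA per cell cannot be told apart.

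Chromatin remodellers use the energy of ATP to slide, evict or exchange nucleosomes. Their motor belongs to the SNF2 family. In the SWI/SNF, ISWI, CHD and INO80 classes it assembles with noncatalytic subunits, some small, such as actin-related proteins, and some long. Histone modifiers add, remove or read acetyl and methyl groups, and several of them, among them Phf6, Ezh2, Suz12 and Eed, are known as tumour suppressor genes in T-cell leukaemia.

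Here a gene is said to have risen or fallen where limma, fitted over all 19937 genes, gave a Benjamini-Hochberg adjusted p under 0.05. The deposited values had been normalised to make arrays alike, so a rise or fall is relative to the other genes on an array. A shift shared by all genes cannot be seen in them. A signal is the log2 value of a probe set, a difference is 4EGI-1 minus control on that log2 scale, ± after a difference is the moderated standard error and ± after a mean is the SD of 3 arrays. Of the 52 measured members, 24 rose (46.2%), 1 fell (1.92%) and 27 did not pass, with a median difference of 0.17. Over all genes tested 11.5% rose and 11.5% fell, with a median difference of -0.03. Nearly all members were bright, meaning a mean signal of at least 6.40, the table's median: this held for 50 of them, of which 48.0% rose and 2.00% fell, against 17.3% and 18.9% of all 11059 bright genes. The median of the mean signals was 10.53 for these 50 members and 8.35 for the bright genes, so the 2 sets are not matched for signal. Treated and control values did not overlap in 40 members, with treated higher in 31 and lower in 9. The same held for 37.9% of all genes and for 6117 of the 11059 bright genes.

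**Figure D1:**
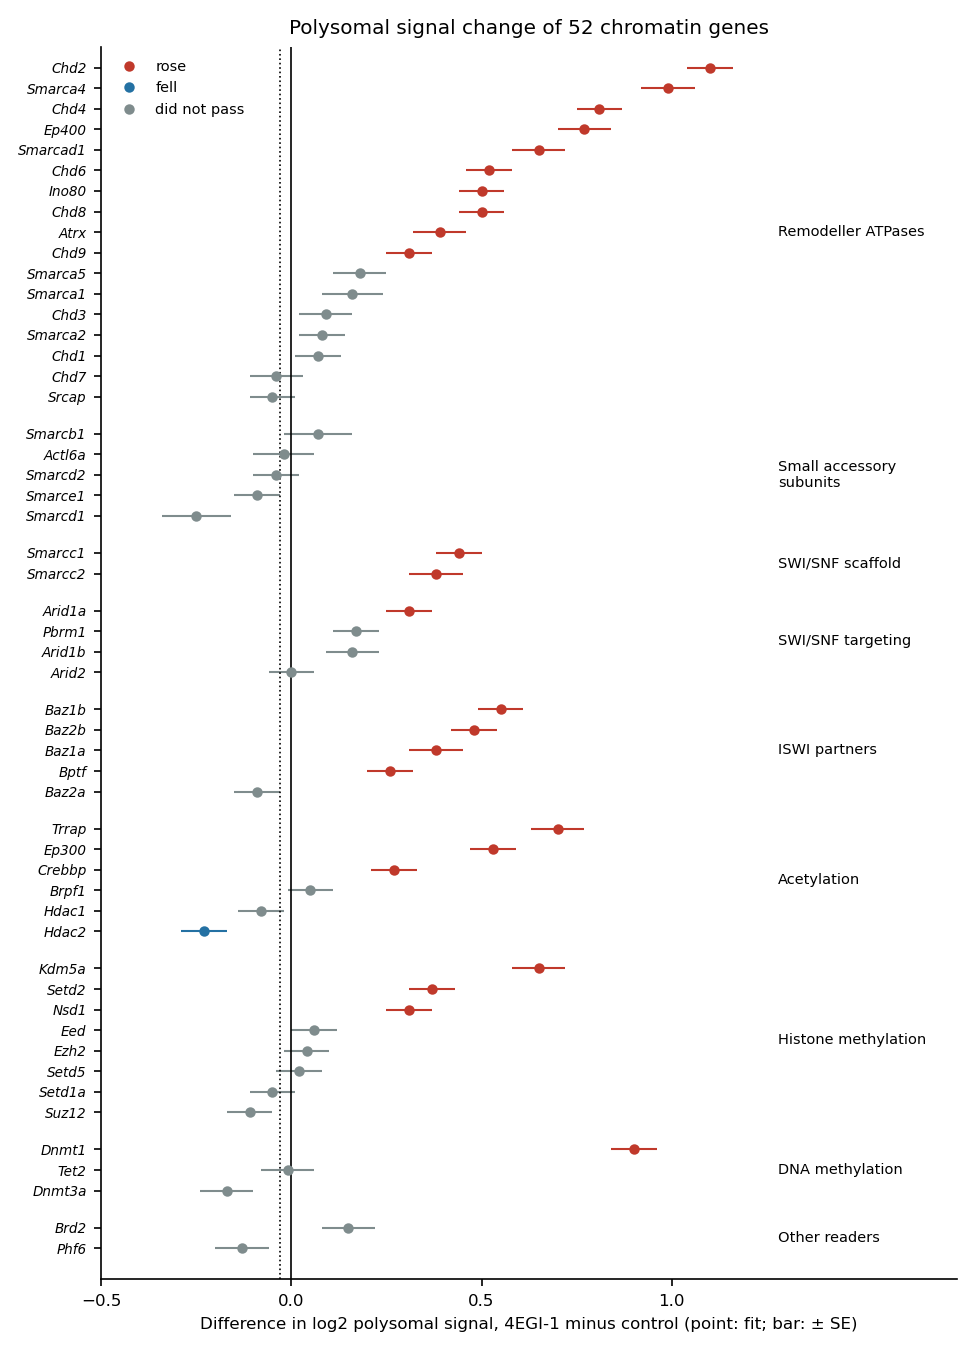
Difference in log2 polysomal signal (x axis, 4EGI-1 minus control, n = 3 arrays each) for the 52 measured members, grouped by role; points are limma estimates, bars the standard error, red points rose, the blue point fell and grey points did not pass. The solid line marks 0 and the dotted line the median over all genes, -0.03; the ATPases reach 1.10 (Chd2) while the 5 small accessory subunits lie between -0.25 and 0.07.

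The sequences upstream of the 4 ATPases among the 5 with the largest increase that have an entry in the RefSeq promoter table, and of the 4 small accessory subunits that have one, are shown to set the regulatory DNA of the increased genes beside that of the genes that did not pass. Chd2 and Smarce1 had no entry. Each window runs from 130 bases before to 20 bases after the annotated start farthest upstream (GRCm38.p6, 5′ to 3′ on the gene's strand). Capitals mark matches on either strand to the GC box, GGGCGG, and to CCAAT.
Smarca4 promoter (chr9:21616039-21616188, plus strand): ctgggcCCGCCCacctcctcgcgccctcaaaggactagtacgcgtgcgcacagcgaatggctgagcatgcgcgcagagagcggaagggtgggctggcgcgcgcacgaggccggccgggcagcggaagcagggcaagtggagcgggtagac
Chd4 promoter (chr6:125095851-125096000, plus strand): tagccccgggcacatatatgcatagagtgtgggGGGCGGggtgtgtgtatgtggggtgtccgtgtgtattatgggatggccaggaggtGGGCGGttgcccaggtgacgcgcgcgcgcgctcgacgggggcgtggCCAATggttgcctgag
Ep400 promoter (chr5:110770698-110770847, minus strand): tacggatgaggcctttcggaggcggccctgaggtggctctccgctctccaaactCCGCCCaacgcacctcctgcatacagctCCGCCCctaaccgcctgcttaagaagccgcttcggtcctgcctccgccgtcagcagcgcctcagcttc
Smarcad1 promoter (chr6:65042461-65042610, plus strand): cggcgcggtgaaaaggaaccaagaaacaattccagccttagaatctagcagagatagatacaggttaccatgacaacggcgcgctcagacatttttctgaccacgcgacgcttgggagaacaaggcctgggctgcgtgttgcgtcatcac
Smarcb1 promoter (chr10:75921595-75921744, minus strand): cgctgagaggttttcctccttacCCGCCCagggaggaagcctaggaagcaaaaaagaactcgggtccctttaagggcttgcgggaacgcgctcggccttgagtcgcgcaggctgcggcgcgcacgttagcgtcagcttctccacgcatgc
Smarcd1 promoter (chr15:99702157-99702306, plus strand): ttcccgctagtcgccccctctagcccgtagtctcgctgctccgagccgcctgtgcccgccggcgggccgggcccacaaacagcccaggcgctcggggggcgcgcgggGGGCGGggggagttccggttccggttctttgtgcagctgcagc
Smarcd2 promoter (chr11:106267613-106267762, minus strand): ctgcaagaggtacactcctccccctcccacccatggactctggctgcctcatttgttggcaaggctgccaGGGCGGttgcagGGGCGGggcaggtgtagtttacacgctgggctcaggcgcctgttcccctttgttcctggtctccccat
Actl6a promoter (chr3:32708416-32708565, plus strand): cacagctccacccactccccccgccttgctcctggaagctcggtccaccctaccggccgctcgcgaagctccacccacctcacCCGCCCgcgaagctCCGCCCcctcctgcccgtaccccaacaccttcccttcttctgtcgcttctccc

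The GC box, the site of Sp1-type factors, was matched in 6 of the 9 ATPases that rose and have an entry and in 4 of the 4 small accessory subunits, against 42.4% of the 15613 genes tested that have an entry. CCAAT, the site of NF-Y, was matched in 4 of those 9 ATPases and 0 of the 4 small subunits, against 26.1% of all. TATAAA was matched in 0 of the 13 ATPases with an entry and in 0 of the 4 small subunits, against 6.90% of all. Median GC content was 65.3% for the ATPases and 66.0% for the small subunits, with 60.0% over all genes, so windows of both kinds were GC-rich. A match is a run of letters, and binding was not measured.

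The question put to the members was whether the large motor subunits and the small subunits of remodelling complexes differed in their polysomal signal after 4EGI-1. Among the 17 ATPases, 10 rose (58.8%), 0 fell and 7 did not pass in limma, where 0 had an unadjusted p under 0.05 in the downward direction. Their median difference was 0.39, with a range from -0.05 to 1.10. Among the 5 small accessory subunits of SWI/SNF, 0 rose and 0 fell in limma, and 1 had an unadjusted p under 0.05, for a decrease. Their median difference was -0.04, with a range from -0.25 to 0.07. The background is 11.5% in each direction over all genes, and 17.3% up and 18.9% down over bright genes. The difference between the classes was not tested, since the genes of a class are no replicates. All 5 small subunits belong to SWI/SNF and most of the ATPases do not, so size and complex cannot be told apart. Of the SWI/SNF motors, Smarca4 rose by 0.99 and Smarca2, with a difference of 0.08, did not pass. The classes were set by role, without protein lengths.

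Medians were also taken array by array. A median over 5 genes varies more than one over 17, so the spreads of the 2 lists are not compared. With each gene set to its control mean, the median over the 17 ATPases was -0.04, 0.03 and 0.01 in the control arrays and 0.42, 0.41 and 0.36 in the treated arrays. For the 5 small subunits it was 0.10, -0.06 and 0.00 in the controls and -0.04, -0.11 and 0.03 in the treated arrays. The groups were apart for the ATPases and overlapped for the small subunits. Over all 52 members the medians were -0.01, -0.01 and 0.01 in the controls and 0.18, 0.17 and 0.21 in the treated arrays. Over all genes they were 0.00, 0.01 and -0.01, and -0.05, -0.01 and -0.01.

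Chd2, a CHD-family remodeller gene, rose most of all members. Its signal was 9.87, 9.99 and 9.92 in the control arrays and 11.09, 11.00 and 10.98 in the treated arrays. The groups lay far apart, and the difference of 1.10 ± 0.06 corresponds to a 2.14-fold higher signal (adjusted p = 5.34e-05).

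Smarca4 encodes BRG1, one of the alternative motors of SWI/SNF. It read 10.25, 10.34 and 10.36 in the controls and 11.38, 11.21 and 11.32 after 4EGI-1. Every treated value was well above every control value, and the difference was 0.99 ± 0.07, or 1.98-fold (adjusted p = 8.26e-05).

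Chd4, the main motor of the NuRD complex, which joins remodelling to histone deacetylation, read 10.18, 10.25 and 10.21 in the controls and 11.00, 10.98 and 11.10 after treatment. It rose by 0.81 ± 0.06 (adjusted p = 0.000116), again with no overlap. Ep400, the motor of the TIP60 complex that exchanges H2A for H2A.Z, read 9.61, 9.77 and 9.69 in the controls and 10.48, 10.42 and 10.47 after treatment. Its increase was 0.77 ± 0.07 (adjusted p = 0.000154), and its 3 treated values were closer together than its controls. Smarcad1, a single-subunit remodeller gene, read 10.26, 10.19 and 10.34 in the controls and 10.87, 10.88 and 10.99 with 4EGI-1. It rose by 0.65 ± 0.07 (adjusted p = 0.000394), and the groups were apart.

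The other 5 ATPases that rose did so by 0.31 to 0.52: Chd6 by 0.52, Ino80, the motor of the INO80 complex, by 0.50, Chd8 by 0.50, Atrx, which with DAXX deposits histone H3.3, by 0.39, and Chd9 by 0.31. All 10 increases passed under every alternative tried, and the groups of each were apart. The 7 that did not pass had small differences. These were 0.18 ± 0.07 for Smarca5 (adjusted p = 0.0868), the ISWI motor SNF2H, 0.16 ± 0.08 for its paralogue Smarca1, 0.09 ± 0.07 for Chd3, 0.08 ± 0.06 for Smarca2 (BRM), 0.07 ± 0.06 for Chd1, -0.04 ± 0.07 for Chd7 and -0.05 ± 0.06 for Srcap. Smarca1 had a mean signal of 4.02, below the median of the table, and Smarca5 passed when bright genes alone were tested (adjusted p = 0.0278) and with a trended robust prior (0.00994). By family, 5 of 8 Chd genes rose, 2 of 5 Smarca-type ATPases, and 3 of the 4 others (Ino80, Ep400 and Atrx but not Srcap). Of all genes 11.5% rose, and of bright genes 17.3%.

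The small accessory subunits have no motor and serve in assembly and nucleosome binding. Smarcb1 encodes SNF5 (INI1), a core subunit and tumour suppressor. Its signal was 9.98, 9.63 and 9.76 in the controls and 9.84, 9.81 and 9.94 with 4EGI-1, so the treated values lay within the range of the controls, and the difference was 0.07 ± 0.09 (adjusted p = 0.655). Actl6a, which encodes the actin-related subunit BAF53A shared by SWI/SNF, INO80 and TIP60 complexes, read 10.79, 10.60 and 10.61 in the controls and 10.67, 10.57 and 10.72 after treatment. The groups overlapped, with a difference of -0.02 ± 0.08 (adjusted p = 0.915).

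Smarcd1 and Smarcd2 encode alternative BAF60 subunits. For Smarcd2 the values were 8.89, 8.82 and 8.85 in the controls and 8.82, 8.75 and 8.88 after 4EGI-1, a difference of -0.04 ± 0.06 (adjusted p = 0.734) with overlap. For Smarcd1 they were 10.03, 9.78 and 9.98 against 9.73, 9.57 and 9.74. The treated values of Smarcd1 were all below the controls, by -0.25 ± 0.09 on average, and missed the threshold (adjusted p = 0.0743). This member depended on the setting: its adjusted p was 0.0340 without control replicate 2, 0.0389 with the replicate number as a block, 0.0498 after quantile normalization, 0.0215 in bright genes alone and 0.0123 with a trended robust prior.

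Smarce1, the HMG-domain subunit BAF57, read 12.36, 12.31 and 12.37 in the controls and 12.25, 12.23 and 12.30 in the treated arrays. The treated values lay just below the controls, with a difference of -0.09 ± 0.06 (adjusted p = 0.365). Its 3 probe sets gave differences of -0.10 to -0.09, and the array does not separate copies of a gene that share sequence.

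**Figure D2:**
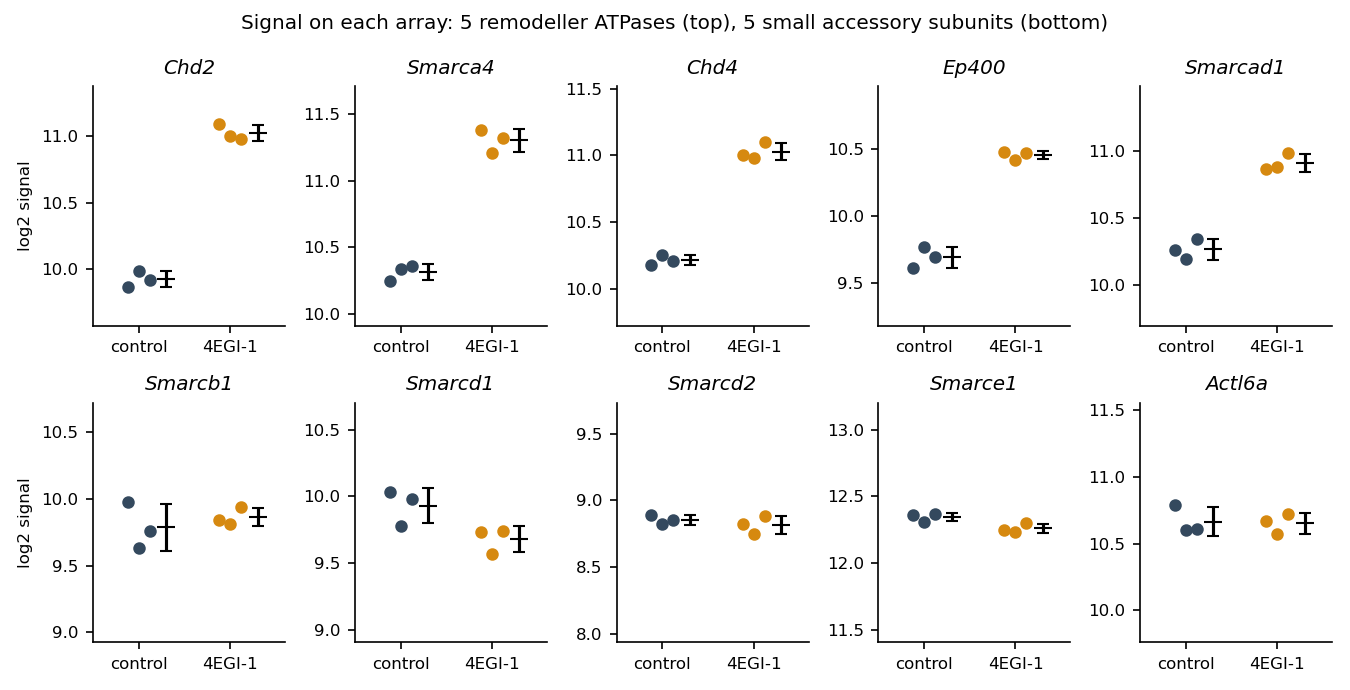
Log2 signal (y axis) on each of the 6 arrays for the 5 ATPases with the largest increase (top row) and the 5 small accessory subunits (bottom row), control in dark blue and 4EGI-1 in orange; black bars are the mean and SD of 3 arrays and every panel spans the same log2 height. The groups are apart in all 5 upper panels, and Smarcd1 and Smarce1 are the lower panels in which the treated values lie below all controls.

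Among the larger noncatalytic SWI/SNF subunits some rose and others did not pass. The 2 scaffold genes rose. Smarcc1 (BAF155) read 10.96, 10.88 and 10.96 in the controls and 11.39, 11.33 and 11.42 after treatment, an increase of 0.44 ± 0.06 (adjusted p = 0.00137). Smarcc2 (BAF170) read 9.82, 9.70 and 9.69, and 10.18, 10.00 and 10.18, an increase of 0.38 ± 0.07 (adjusted p = 0.00719). In both genes all treated values were above all controls. Of the 4 targeting subunits, which bring DNA-binding or bromodomains, Arid1a (BAF250A) rose: 10.35, 10.43 and 10.42 became 10.72, 10.64 and 10.79, a difference of 0.31 ± 0.06 (adjusted p = 0.00907). Pbrm1, the polybromo subunit of PBAF, differed by 0.17 ± 0.06 (adjusted p = 0.0814), Arid1b by 0.16 ± 0.07 (0.151), and Arid2 of PBAF by 0.00 ± 0.06 (0.998). Pbrm1 passed after quantile normalization (adjusted p = 0.0213), in bright genes alone (0.0260) and with a trended robust prior (0.00200). Over all 11 noncatalytic SWI/SNF members, 3 rose (27.3%), 0 fell and 8 did not pass in limma, with a median of 0.07. For comparison, 11.5% rose and 11.5% fell over all genes, and 17.3% and 18.9% over bright genes. In limma 1 of the 11 had an unadjusted p under 0.05 for a decrease, Smarcd1.

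The 5 partner genes encode long bromodomain and PHD-finger proteins that pair with ISWI-type motors. Of these, 4 rose (80.0%) and 1 did not pass, with a median of 0.38. The share that rose was 11.5% over all genes and 17.3% over bright genes. Baz1b (WSTF) read 11.57, 11.61 and 11.56 in the controls and 12.16, 12.08 and 12.14 with 4EGI-1, an increase of 0.55 ± 0.06 (adjusted p = 0.000414). Baz2b went from 9.41, 9.50 and 9.47 to 9.99, 9.88 and 9.97, an increase of 0.48 ± 0.06. Both had widely separated groups. Baz1a (ACF1) went from 9.98, 9.97 and 10.14 to 10.45, 10.35 and 10.42, an increase of 0.38 ± 0.07. Bptf, the NURF subunit that reads methylated histone H3, rose by 0.26 ± 0.06 (adjusted p = 0.0166), a call lost without control replicate 1 (0.0550) or 4EGI-1 replicate 1 (0.0528). Baz2a (TIP5), the partner in the nucleolar remodelling complex, differed by -0.09 ± 0.06 (adjusted p = 0.301) with all treated values below the controls.

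Among the 6 measured genes of histone acetylation 3 rose (Trrap, Ep300 and Crebbp), 1 fell (Hdac2) and 2 did not pass (Brpf1 and Hdac1). These shares, 50.0% up and 16.7% down, stand beside 11.5% each over all genes and 17.3% and 18.9% over bright genes. Trrap, the scaffold of the TIP60 and SAGA complexes, read 8.48, 8.66 and 8.59 in the controls and 9.30, 9.24 and 9.30 after treatment. It rose by 0.70 ± 0.07 (adjusted p = 0.000261), and its second probe set by 0.55. Ep300 (p300) went from 10.45, 10.46 and 10.50 to 11.06, 10.95 and 11.00, an increase of 0.53 ± 0.06 (adjusted p = 0.000542). Its paralogue Crebbp (CBP) went from 11.00, 10.94 and 11.03 to 11.32, 11.22 and 11.24. Crebbp rose by 0.27 ± 0.06 (adjusted p = 0.0148), with a call lost without control replicate 2 (0.0553) or 4EGI-1 replicate 1 (0.0511). Brpf1, a scaffold of the MOZ acetyltransferase complex, differed by 0.05 ± 0.06 (adjusted p = 0.591).

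Hdac2, a class I deacetylase gene of the NuRD, SIN3 and CoREST complexes, was the member that fell. It read 12.54, 12.52 and 12.47 in the controls and 12.31, 12.29 and 12.23 in the treated arrays. The groups were apart, but the difference was small, -0.23 ± 0.06 (adjusted p = 0.0239). Leaving out 1 array ended the call in 5 of 6 cases: it became 0.0715, 0.0700 and 0.0531 when control replicates 1, 2 and 3 were omitted in turn, and 0.0529 and 0.0832 when 4EGI-1 replicates 2 and 3 were. After quantile normalization it was 0.0589. Hdac1 differed by -0.08 ± 0.06 (adjusted p = 0.372), and a second, dimmer probe set of the same symbol fell by 0.31 (adjusted p = 0.0200).

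Of the 8 measured genes of histone methylation 3 rose, 0 fell and 5 did not pass in limma, where 0 had an unadjusted p under 0.05 for a decrease. The median difference was 0.05, and the share that rose, 37.5%, stands beside 11.5% over all genes and 17.3% over bright genes. Kdm5a, a demethylase of H3K4, read 9.84, 10.00 and 10.02 in the controls and 10.65, 10.51 and 10.64 after 4EGI-1. It rose by 0.65 ± 0.07 (adjusted p = 0.000566). Setd2, which puts the third methyl group on H3K36, went from 10.69, 10.67 and 10.73 to 11.14, 11.02 and 11.05, an increase of 0.37 ± 0.06 that its second probe set matched (0.37). Nsd1, a further H3K36 methyltransferase gene, went from 10.30, 10.31 and 10.29 to 10.66, 10.63 and 10.53, an increase of 0.31 ± 0.06 (adjusted p = 0.00792). None of these 3 had overlapping groups. The core of Polycomb repressive complex 2 showed small differences that did not pass: 0.04 ± 0.06 for Ezh2, the methyltransferase, 0.06 ± 0.06 for Eed, which reads H3K27 trimethylation, and -0.11 ± 0.06 for Suz12, the scaffold (adjusted p = 0.699, 0.580 and 0.236). Setd1a, an H3K4 methyltransferase gene, differed by -0.05 ± 0.06 and Setd5, a SET-domain gene, by 0.02 ± 0.06. With a trended robust prior Suz12 passed as a decrease (adjusted p = 0.0371).

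Dnmt1, the maintenance DNA methyltransferase that copies methylation marks at the replication fork, had the third-largest increase of the members. It read 10.84, 10.82 and 10.83 in the controls and 11.76, 11.68 and 11.74 with 4EGI-1, and rose by 0.90 ± 0.06, or 1.86-fold (adjusted p = 6.65e-05). The separation was many times the spread within either group. Dnmt3a, a de novo methyltransferase gene, differed by -0.17 ± 0.07 (adjusted p = 0.138; 0.0271 with a trended robust prior) and Tet2, a dioxygenase that oxidises methylcytosine, by -0.01 ± 0.07 at a mean signal of 5.21, below the median of the table. The remaining readers did not pass: Brd2, a BET bromodomain gene, differed by 0.15 ± 0.07 (adjusted p = 0.161; 0.0428 with a trended robust prior) and Phf6, a PHD-finger gene, by -0.13 ± 0.07 (0.197).

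Paralogues were compared within arrays. For 13 pairs the log2 signal of the second gene was subtracted from that of the first on each array, and the 3 treated arrays were set against the 3 controls in an exact two-sided permutation test, which cannot go below 0.10 here. The groups were apart in 10 pairs, each with an exact p = 0.10 (0.130 adjusted over the 13 pairs), so no pair reached 0.05 by design. Of all possible gene pairs 40.8% were apart in this way, and of all pairs of bright genes 59.3%, so the count of pairs is read no further. The widest gap was between Chd1 and Chd2, whose differences of 0.07 and 1.10 were 1.02 ± 0.06 apart (SE, n = 3 each). Smarca2 and Smarca4, the alternative SWI/SNF motors, had 0.08 and 0.99, a gap of 0.91 ± 0.07. Chd3 and Chd4, the alternative NuRD motors, had 0.09 and 0.81, a gap of 0.73 ± 0.04. In each of these 3 pairs the gap was many times its error, but the pairs are named for their wide gaps, so this ratio is no test. Baz2a and Baz2b (-0.09 and 0.48) and Chd6 and Chd7 (0.52 and -0.04) were 0.58 ± 0.03 and 0.56 ± 0.08 apart. Smaller gaps with separate groups were found for Ep300 and Crebbp (0.26 ± 0.02), Smarcd1 and Smarcd2 (0.21 ± 0.06), Chd8 and Chd9 (0.19 ± 0.04), Baz1a and Baz1b (0.17 ± 0.07) and Hdac1 and Hdac2 (0.15 ± 0.04). The groups overlapped for Arid1a and Arid1b (0.15 ± 0.09, exact p = 0.30), Smarcc1 and Smarcc2 (0.06 ± 0.05, exact p = 0.30) and Smarca1 and Smarca5 (0.02 ± 0.11, exact p = 1.00).

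**Figure D3:**
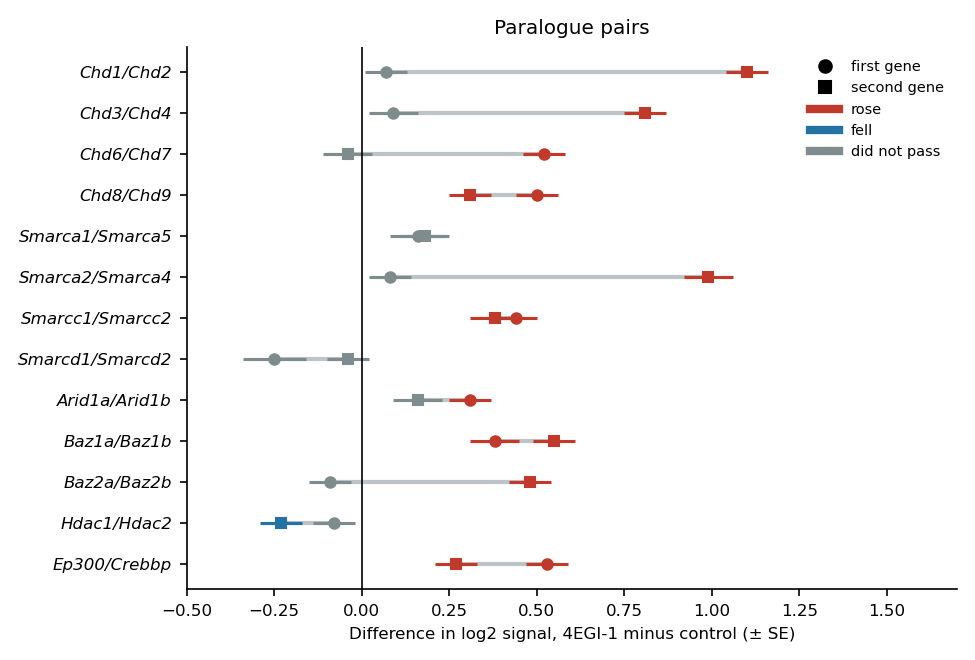
Difference in log2 signal (x axis, 4EGI-1 minus control, ± SE) of both genes in each of 13 paralogue pairs; circles are the first gene named and squares the second, red rose, blue fell, grey did not pass, and the grey line joins the pair. Chd1/Chd2, Smarca2/Smarca4 and Chd3/Chd4 show the widest gaps, 1.02, 0.91 and 0.73.

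Chromatin genes outside the 54 were listed by role for comparison. Among 15 other SNF2-family ATPases 9 rose (60.0%), 0 fell and 6 did not pass in limma, with 2 at an unadjusted p under 0.05 for a decrease and a median difference of 0.32. Hltf, a DNA translocase and ubiquitin ligase of replication-fork repair, rose from 8.87 ± 0.03 to 9.57 ± 0.01 (adjusted p = 0.000131). Ercc6l (PICH), the translocase of anaphase DNA bridges, rose by 0.69 ± 0.07, Rad54b of homologous recombination by 0.66 ± 0.08 and Shprh by 0.61 ± 0.08. The share that rose was 58.8% of the member ATPases and 60.0% of the other family members, against 11.5% of all genes and 17.3% of bright genes. Both lists were chosen with earlier results of these data known, so their likeness is no independent support.

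Among 51 measured noncatalytic subunits of remodelling complexes that are no members, 7 rose (13.7%), 11 fell (21.6%) and 33 did not pass, with a median of 0.00. Without control replicate 2, 7 fell, and at an adjusted p under 0.01, 4 rose and 6 fell. Rsf1, the long partner of Smarca5 in the RSF complex, rose from 9.86 ± 0.11 to 10.78 ± 0.07, and Nfrkb of the INO80 complex from 8.85 ± 0.07 to 9.57 ± 0.10 (adjusted p = 0.000136 and 0.000345). The TIP60 complex held genes of either direction: Brd8 and Epc1 rose by 0.48 ± 0.06 and 0.40 ± 0.07, whereas Yeats4 (GAS41) fell by 0.52 ± 0.07 and Meaf6 by 0.53 ± 0.07. Znhit1, a small subunit of the SRCAP complex, fell by 0.53 ± 0.08, and Mta1 of NuRD by 0.58 ± 0.08. Over all genes 11.5% rose and 11.5% fell, and over bright genes 17.3% and 18.9%, so the share that rose was near both backgrounds and the share that fell, 21.6%, was above the first and near the second.

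**Figure D4:**
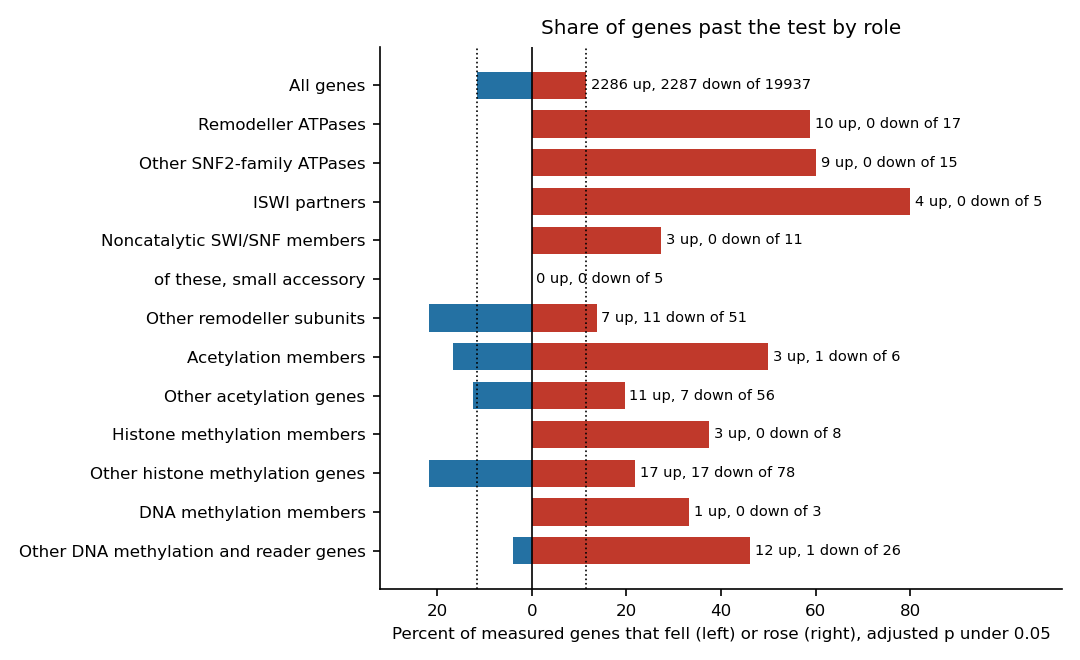
Percent of measured genes that rose (right, red) or fell (left, blue) at an adjusted p under 0.05 for the roles of the members, the comparison lists and all genes tested; the numbers beside each bar are counts and the dotted lines mark 11.5% on either side. The 2 ATPase lists reach 58.8% and 60.0% on the right with 0 on the left, while the other remodeller subunits have 7 up and 11 down of 51.

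Among other acetylation genes 11 of 56 rose (19.6%) and 7 fell (12.5%), with a median of -0.01, beside 11.5% in each direction over all genes and 17.3% and 18.9% over bright genes. Jade3, Arid4a and the acetyltransferase gene Kat6b rose by 0.63 ± 0.07, 0.56 ± 0.07 and 0.42 ± 0.06, and Ing1, a reader in the SIN3 complex, fell by 0.78 ± 0.07. Among other histone methylation genes 17 of 78 rose and 17 fell (21.8% each), with a median of -0.01. The genes named from these lists are those with the smallest adjusted p. The H3K9 demethylase genes Kdm4c and Kdm4a rose by 0.82 ± 0.07 and 0.68 ± 0.06 and the H3K9 methyltransferase gene Setdb1 by 0.74 ± 0.08, while Setd7 fell by 0.79 ± 0.07.

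Where a member had several probe sets, these could be set side by side. This was so for 9 members. All probe sets rose for Bptf, Chd6, Setd2 and Trrap, with 2 each; for Chd6 the differences were 0.52 and 0.26. For Pbrm1, 1 of 3 rose, for Hdac1 1 of 2 fell, and for Eed (2 probe sets) and Smarce1 (3 probe sets) 0 passed. The share over all probe sets was not computed, and over all genes 11.5% rose and 11.5% fell. Chd7 had 30 probe sets: 1 passed as higher, 0 as lower and 29 missed the threshold, with differences from -0.29 to 0.34 and a median of -0.03; 23 of the 30 had a mean signal under the median of the table.

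**Figure D5:**
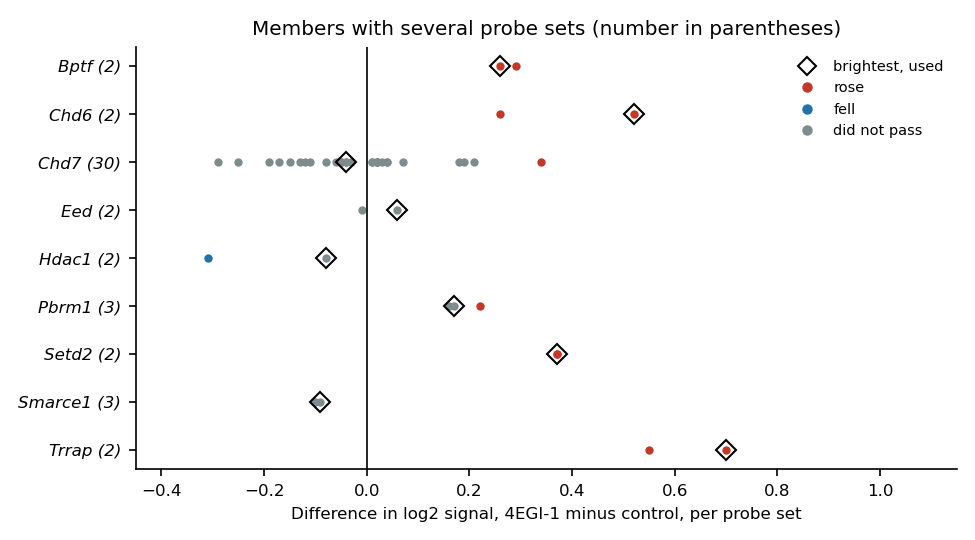
Difference in log2 signal (x axis, 4EGI-1 minus control) of every probe set of the 9 members that have several, with their number in parentheses; red rose, blue fell and grey did not pass with p adjusted over all probe sets, and an open diamond marks the brightest probe set, which stands for the gene. The 30 probe sets of Chd7 spread around 0 from -0.29 to 0.34, and both of Trrap lie above 0.5.

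The cells carried T-cell transcripts, as the label says. The 14 measured T-cell marker genes had mean signals from 6.85 to 12.37, with Cd3e, Cd3g, Thy1 and Cd8a among them. Of these 0 rose and 7 fell (50.0%) in limma, Cd3e among the latter, against 11.5% that fell over all genes and 18.9% over bright genes, with a median difference of -0.21 and 1 unadjusted p under 0.05 for an increase. Their per-array median was 10.60 to 10.72 in controls and 10.36 to 10.40 with 4EGI-1. Mean signals were 4.39 to 6.74 for 6 B-cell markers, 4.81 to 6.80 for 8 myeloid, 6.10 to 7.03 for 4 erythroid and 5.31 to 8.93 for 7 stromal or endothelial markers, the brightest being Pecam1. Of these, Blnk rose from 6.25 to 7.23 and Adgre1 from 4.92 to 5.55, and 0 fell in limma, with 2 at an unadjusted p under 0.05 for a decrease. Whether these shifts have a part in the members' differences was not tested.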

How the data were processed

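Polysomal RNA of 3 control and 3 4EGI-1 samples was hybridised to 1 array each, grouped by sample title; the design text calls them biological replicates. The authors deposited RMA output on a log2 scale, 1 value for every probe set (tool name from the submitters' processing notes, without version or settings). RMA makes arrays alike, so values are relative within an array. Of 34760 probe sets 21640 have 1 symbol in the platform annotation; symbols were updated by Entrez identifier for 21553 of these through RefSeq (GRCm38.p6), and the brightest probe set per symbol gave 19937 genes. Array medians were 6.38 to 6.43, and precision is limited by having 3 arrays a group.

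Differences were fitted with limma 3.58.1 (lmFit, eBayes) in R 4.3.3, two-sided, with no filter and with 8.15 degrees of freedom including a prior of 4.15; the fit was tested on simulated data. Members, roles, comparison lists, markers and pairs were chosen with earlier results of these data known. Every-array values are given for the 5 small subunits, the 5 most changed ATPases that passed and up to 3 most changed members that passed per other role, plus Hdac2, added after its value was seen; up to 4 genes per comparison list (8 for remodeller subunits) are named by smallest adjusted p. Promoters come from the RefSeq table; 41 of the 52 measured members matched. Protein lengths were not used here. Tried as alternatives were quantile normalization, median centring, bright genes alone, averaged probe sets, all probe sets tested singly, a trended robust prior, a threshold of 0.01, omission of each array, and a replicate block.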

Additional observations from a re-analysis of the deposited data

How the results depend on the processing

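The count of ATPases that rose was 10 or 11, and that of all members that rose 22 to 27, in every alternative listed; 22 of the 24 increases passed in every alternative at the 0.05 threshold, and 0 members changed sign past it. Members that fell numbered 2 with the replicate block, 2 in bright genes alone, 4 with a trended robust prior and 0 at an adjusted p under 0.01; without single arrays they numbered 0 to 1. Small accessory subunits that fell numbered 1 with the replicate block, after quantile normalization, in bright genes alone and with the trended prior, and 0 to 1 without single arrays. The ATPase median was 0.45 in bright genes alone and 0.33 to 0.45 without single arrays. Other SNF2-family ATPases that fell numbered 1 after quantile normalization, 2 in bright genes alone and 2 with the trended prior. Other remodeller subunits that rose numbered 4 and those that fell 6 at an adjusted p under 0.01, and 7 to 10 fell without single arrays. Paired gaps, recomputed in settings chosen after seeing the data, were apart in 9 to 12 of 13 pairs. In the main setting 40.8% of all gene pairs and 59.3% of pairs of bright genes were apart, so this range is read no further. Correlations of same-numbered deviations were 0.0609, 0.107 and -0.0214, and those of different numbers -0.109 to 0.0553. With 3 arrays a group these values cannot settle whether the replicate numbers pair the arrays. With the replicate block 24 members rose. The cause of these shifts was not tested. Dim members (Smarca1, Tet2) limit what a null result can show.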

Other observations

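Readers and genes of DNA methylation outside the members were higher more often than lower after 4EGI-1: 12 of 26 rose (46.2%), 1 fell (3.85%) and 13 did not pass, with a median difference of 0.18. These shares stand beside 11.5% in each direction over all genes tested, and 17.3% up and 18.9% down over bright genes. Atad2, a bromodomain ATPase gene, had a mean log2 signal of 10.25 ± 0.05 in the controls and of 11.22 ± 0.09 in the treated arrays (SD of 3; limma adjusted p = 8.26e-05). Uhrf1, which brings Dnmt1 to hemimethylated DNA, rose by 0.85 ± 0.08 (SE), the mismatch glycosylase gene Mbd4 by 0.62 ± 0.06 and the methyl-lysine reader gene Phf20 by 0.76 ± 0.08. Dnmt1 itself rose by 0.90 ± 0.06.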
